A study of Mus musculus with 125 samples.

Results

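The genes described here are 8 regulators of zygotic genome activation, Dppa2, Dppa4, Nr5a2, Klf5, Klf17, Nfya, Yap1 and Rarg. They were found by symbol among the 43421 genes of a table of estimated counts from single mouse embryos at the 2-cell stage, and all 8 had 1 row each. Embryos came from zygotes selected 10 h after fertilization and were collected at 34 h, after removal of the second polar body. Fertilized embryos were hybrids of 2 inbred mouse strains, written here BxJ for C57BL/6 x JF1/Ms and JxB for JF1/Ms x C57BL/6, and the labels do not say which strain was the mother. Zygotes had either the usual 2 separate pronuclei (2PN) or 1 pronucleus (1PN). Some embryos scored as 1PN carry an in silico call of parthenote in the labels and are called uniparental below, while 1PN alone means embryos without that call. The labels number hybrid embryos in a first and a later listing, and what the later listing stands for is not given. The later listing held 14 BxJ 2PN, 2 BxJ 1PN, 1 BxJ uniparental, 5 JxB 2PN and 1 JxB uniparental embryo and no parthenote. BxJ gave 43 2PN, 11 1PN and 8 uniparental embryos. JxB gave 21 2PN, 3 1PN and 4 uniparental embryos. The last group held 31 C57BL/6 parthenotes, and how they were activated is not stated in the labels. Ages of the mothers are not given there either, nor which embryos shared parents, so that p-values measure the spread between these embryos.

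Zygotic genome activation is the start of transcription from the embryo's own genome, and in the mouse its major wave falls in the 2-cell stage, while oocyte transcripts are being cleared. DPPA2 and DPPA4 are small SAP-domain proteins that bind chromatin together and act upstream of the 2-cell programme. NR5A2, an orphan nuclear receptor, KLF5 and KLF17, zinc finger factors of the Krüppel-like family, and RARG, a retinoic acid receptor, bind regulatory sequences of genes that come on at this stage. NFYA is the subunit of the NF-Y trimer that recognises the CCAAT box, and YAP1 is the coactivator that the Hippo kinases restrain and that acts through TEAD proteins. On GRCm38 the genes lie at chr16:48310274-48319513 (Dppa2), chr16:48283735-48294292 (Dppa4), chr1:136842562-136960448 (Nr5a2), chr14:99298691-99313412 (Klf5), chr4:117756659-117765666 (Klf17), chr17:48386885-48409820 (Nfya), chr9:7931999-8004638 (Yap1) and chr15:102234938-102257522 (Rarg), and counts cover the whole gene. Several of these transcripts are also stored in the oocyte, and the table does not separate oocyte copies from new ones.

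The upstream sequences of Klf17, Nr5a2, Yap1 and Nfya, members called in several comparisons below, are shown because these factors are thought to act on promoters. Whether they act on their own was not tested. A promoter entry was matched for 5 of the 8 members in RefSeq sequences of GRCm38.p6, and Dppa2, Dppa4 and Klf5 had no entry in that table. Rarg had an entry for each of 2 starts, which are not printed. Each line gives the 250 bases before a transcription start, 5′ to 3′ on the gene's own strand, which is the minus strand for all of them. Capitals mark matches on either strand to CCAAT (NF-Y), CAAGGNCA (NR5A2), GGAATG (TEAD), AGGTCA (retinoid receptors, which can overlap the NR5A2 motif) or CCNCNCCC (Klf factors).
Klf17, chr4:117765667-117765916: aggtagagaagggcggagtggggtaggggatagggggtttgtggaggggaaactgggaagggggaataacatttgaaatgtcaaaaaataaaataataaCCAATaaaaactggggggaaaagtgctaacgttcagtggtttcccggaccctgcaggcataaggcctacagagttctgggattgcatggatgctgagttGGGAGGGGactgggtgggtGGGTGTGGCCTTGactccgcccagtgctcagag
Nr5a2, outer start, chr1:136960449-136960698: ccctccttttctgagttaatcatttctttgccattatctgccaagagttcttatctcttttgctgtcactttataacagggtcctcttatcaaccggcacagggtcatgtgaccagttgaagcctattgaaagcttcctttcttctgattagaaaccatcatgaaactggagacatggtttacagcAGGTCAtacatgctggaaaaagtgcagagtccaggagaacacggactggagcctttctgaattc
Nr5a2, inner start, chr1:136953631-136953880: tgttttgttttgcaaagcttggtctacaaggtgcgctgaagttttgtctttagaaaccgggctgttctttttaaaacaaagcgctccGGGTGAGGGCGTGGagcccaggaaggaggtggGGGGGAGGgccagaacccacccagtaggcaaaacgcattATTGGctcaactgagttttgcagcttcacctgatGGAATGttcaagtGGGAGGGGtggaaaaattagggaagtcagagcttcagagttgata
Yap1, chr9:8004597-8004846: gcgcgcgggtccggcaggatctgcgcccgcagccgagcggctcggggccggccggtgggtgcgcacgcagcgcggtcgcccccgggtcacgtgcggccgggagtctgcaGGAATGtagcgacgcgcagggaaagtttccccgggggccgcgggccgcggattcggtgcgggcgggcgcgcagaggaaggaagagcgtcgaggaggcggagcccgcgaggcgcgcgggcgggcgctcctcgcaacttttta
Nfya, outer start, chr17:48409821-48410070: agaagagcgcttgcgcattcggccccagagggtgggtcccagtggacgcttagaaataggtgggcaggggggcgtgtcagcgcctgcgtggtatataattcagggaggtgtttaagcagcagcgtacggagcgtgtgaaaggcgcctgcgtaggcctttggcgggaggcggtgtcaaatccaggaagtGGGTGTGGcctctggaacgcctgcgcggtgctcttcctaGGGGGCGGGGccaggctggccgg
The Klf17 stretch held 1 NF-Y, 1 NR5A2 and 2 Klf matches, the NR5A2 match overlapping a Klf match. The outer Nr5a2 start had 1 match, to the retinoid receptor motif, and the inner start had 1 NF-Y, 1 TEAD and 4 Klf matches. Yap1 had 1 match, to the TEAD motif, and the outer Nfya start had 3, all to the Klf motif. Of the other 2 Nfya starts, which are not printed, the nearer had 4 Klf matches and the farther had 1 NF-Y match. Such matches are frequent among promoters. Of 32851 mouse promoters of 300 bases (250 before and 50 after the start), 37.4% held the NF-Y motif, 6.71% the NR5A2 motif, 14.7% the TEAD motif, 16.3% the retinoid receptor motif and 49.5% the Klf motif.

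The 121 libraries held from 533276 to 4887274 counts, with a median of 3392406, and levels are given as CPM, a gene's counts scaled to the same total in every embryo, so that the total amount of RNA in an embryo is not seen and fewer cells cannot be told apart from less RNA per cell. Reads carry no molecular identifiers, and counting error is not the whole error. JxB 2PN libraries were shallower, with a median of 2522056 against 3867740 in BxJ 2PN, and 7 of 21 against 1 of 43 held under 2000000 counts. Summed markers of cumulus and granulosa cells, the cells around the oocyte, ran from 4.13 to 72.4 CPM in BxJ uniparental embryos and from 7.62 to 91.3 in parthenotes, against 0.281 to 36.7 in BxJ 2PN and 0 to 4.49 in JxB uniparental embryos. Of the 11 markers, Fshr was at 0 throughout BxJ uniparental and Ptx3 and Fshr throughout parthenotes. Sperm and blood markers reached at most 21.7 and 135 CPM in any kept embryo. The 2-cell transcript Zscan4d and its companion Zfp352 had a count in 120 of 121 embryos, and the exception for both was JxB uniparental embryo 1. Obox1 was also counted in 120, the exception being JxB 2PN embryo 18. For the members, JxB uniparental embryos 1 and 2, JxB 2PN embryo 8 and BxJ uniparental embryo 10 stood apart from their groups, and member tests resting on them are given with and without them. The lists of other genes and the promoter motifs are described only with these embryos included. The share of non-zero estimated counts that were not whole was 58.7% for Dppa2, 53.7% for Dppa4, 52.1% for Yap1 and 25.6% for Klf17, against at most 5.79% for the other members. The labels do not state how shared reads were divided, so the levels of those 4 genes are uncertain to that extent.

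**Figure D1:**
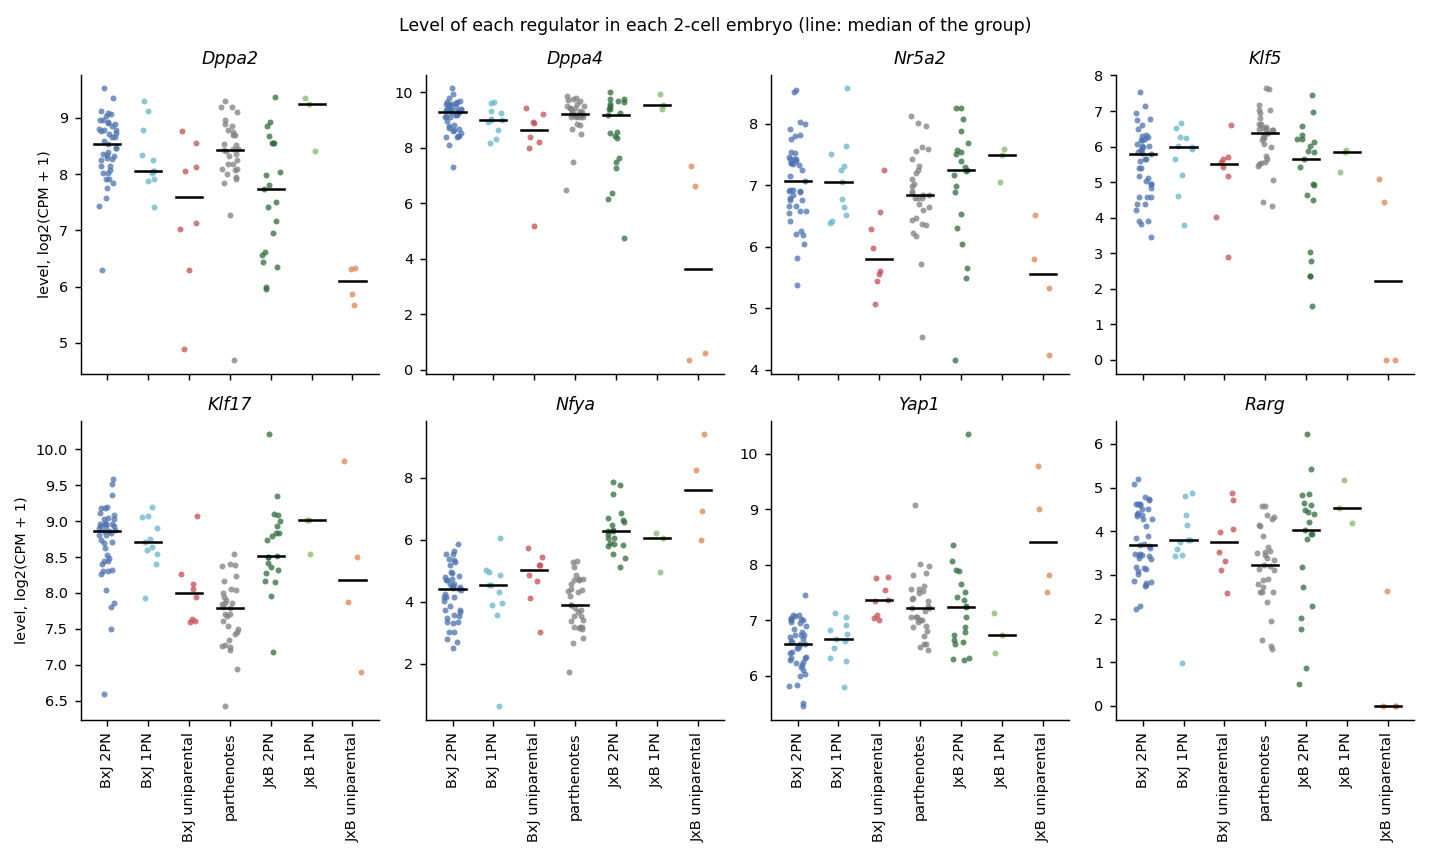
Level of each member in each embryo as log2(CPM + 1), by group, with 1 point per embryo and a line at the median. Dppa2, Dppa4 and Nr5a2 lie low in both uniparental groups, Nfya lies high in all JxB groups, and Klf17 lies low in parthenotes.

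The first comparison asks whether passing the zygote stage with 1 pronucleus in place of 2 went with other levels of the regulators. None of the 8 members differed between 1PN and 2PN embryos over both crosses in edgeR's quasi-likelihood test with Benjamini-Hochberg adjustment over all genes, where 0.101% of 22785 genes were called. That was 23 genes, all higher, and 1 without BxJ 1PN embryo 9, while DESeq2 called 7 higher and 1 lower and limma voom called 0. At an unadjusted p under 0.05 the count was 0 of 8 members and 1119 genes, and limma voom and DESeq2 also called no member. The median log2 fold change of the members was 0.03, against -0.02 for all genes.

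The upstream factors Dppa2 and Dppa4 were found in every 1PN embryo. Dppa2 ran from 170.2 to 632 CPM in BxJ 1PN (median 265), inside the range of 77.9 to 738 in BxJ 2PN (median 369.5). The 3 JxB 1PN embryos had 338, 651 and 608 CPM, all above the JxB 2PN median of 213 but below its highest embryo at 664. The groups overlapped in both crosses. Over both crosses the log2 fold change of Dppa2 was 0.18 ± 0.23 (SE), with an approximate 95% interval from -0.27 to 0.62 (adjusted p = 1.00). Dppa4 changed by 0.03 ± 0.28, with an interval from -0.52 to 0.58.

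For the sequence-specific factors the intervals were of like width. Nr5a2 had medians of 132 CPM in BxJ 1PN and 133 in BxJ 2PN, and a log2 fold change of 0.07 with an interval from -0.37 to 0.50. Klf17 had the narrowest interval, from -0.34 to 0.32, and medians of 416 and 464 CPM. Klf5, Nfya, Yap1 and Rarg had intervals from -0.58 to 0.64, from -0.61 to 0.48, from -0.54 to 0.27 and from -0.45 to 0.64. Within BxJ the log2 fold changes lay between -0.22 (Dppa4) and 0.04 (Klf5), with 0 members and 0.197% of 24380 genes called (48 genes, and 0 without embryo 9). Within JxB, where 1PN had 3 embryos, they lay between -0.84 (Yap1) and 1.08 (Dppa2), again with 0 members and 0.0082% of genes called in edgeR, and 2 members had an unadjusted p under 0.05. There limma voom called 5 genes higher and 38 lower and DESeq2 5 higher and 659 lower, with no member among them. The 1PN effect did not differ detectably between the crosses for any member (0 called, background 0%, 1 member at an unadjusted p under 0.05). The differences, JxB minus BxJ, lay between -0.86 (Yap1) and 1.29 (Dppa2).

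With all kept embryos included, uniparental embryos differed from 2PN embryos in most of the regulators. The calls of Klf5, Nfya and Yap1 given next were lost without JxB uniparental embryos 1 and 2. Over both crosses 5 of 8 members were lower (Dppa2, Dppa4, Nr5a2, Klf5 and Klf17) and 2 were higher (Nfya and Yap1), where 18.3% of all genes were called lower and 26.6% higher, 44.8% in all. The median log2 fold change was -0.82 over the members and 0.22 over all genes. With the size factors of DESeq2 in place of TMM the median of all genes moved to 0.40, so changes are best read against that shift.

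**Figure D2:**
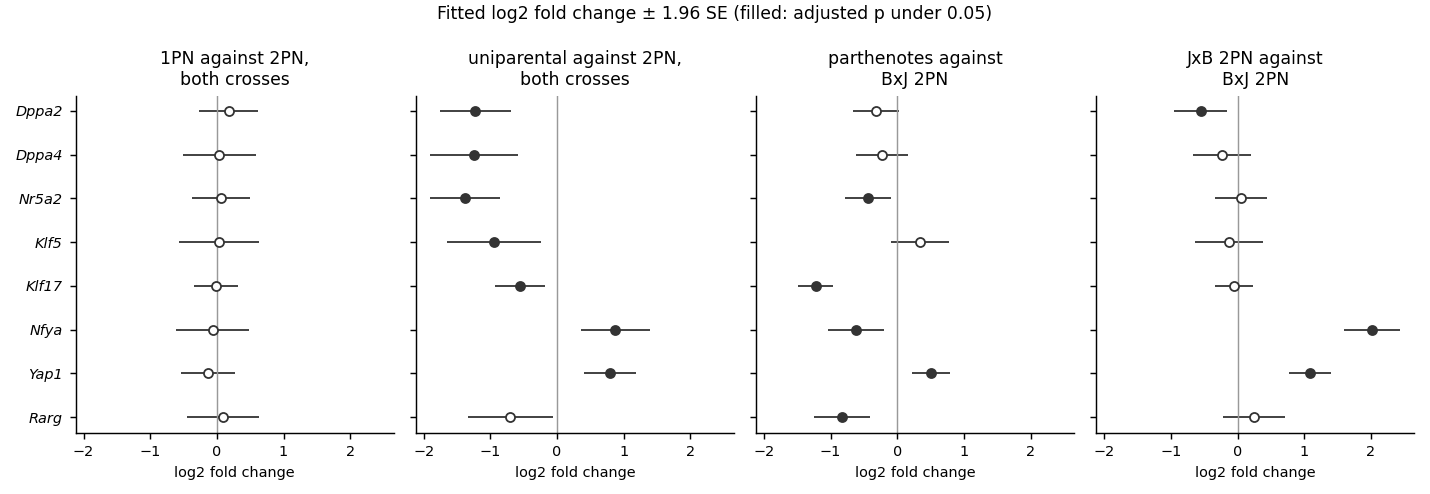
Fitted log2 fold change of each member in 4 comparisons, with bars for approximate 95% intervals and filled points where the adjusted p was under 0.05. No point is filled for 1PN against 2PN, 7 are filled for uniparental against 2PN, 5 for parthenotes and 3 for the reciprocal 2PN embryos.

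Dppa2 ran from 28.7 to 436 CPM in the 8 BxJ uniparental embryos, with a median of 202, and 6 of 8 lay below the BxJ 2PN median of 369.5. In the 4 JxB uniparental embryos it was 78.3, 79.9, 57.8 and 49.9 CPM, all below the JxB 2PN median of 213 and 2 of them below the lowest JxB 2PN embryo at 60.9. The ranges overlapped within each cross. The fall over both crosses was -1.23 ± 0.27 (log2, SE; adjusted p = 0.000152), and it was called under all 20 alternatives, with adjusted p from 7.27e-06 to 0.017.

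Dppa4, the neighbour of Dppa2 on chromosome 16 with 15981 bases between the end of Dppa4 and the start of Dppa2, fell by 1.25 on the log2 scale (SE 0.33, adjusted p = 0.00148). Its BxJ uniparental values ran from 35.3 to 685 CPM, median 401, and 7 of 8 lay below the BxJ 2PN median of 622.5 (range 157 to 1134). In JxB uniparental embryos 1 and 2 it was almost missing, at 0.531 and 0.284 CPM from 2 counts and 1 count, while embryos 3 and 7 had 159.6 and 97.8 CPM. JxB 2PN ran from 26.3 to 1030.4 CPM. Embryos 1 and 2 kept 78.3 and 79.9 CPM of Dppa2, so the partners parted there.

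**Figure D3:**
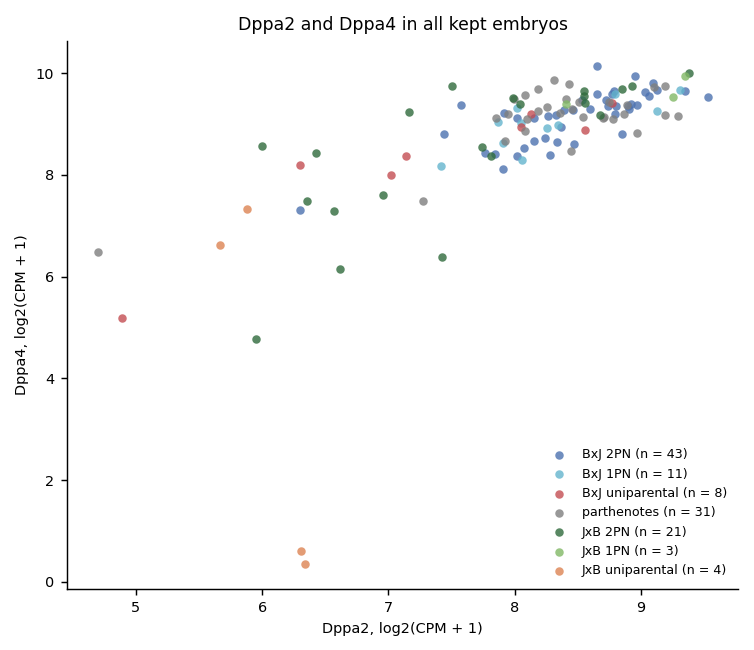
Dppa2 (horizontal) and Dppa4 (vertical) as log2(CPM + 1) in the 121 kept embryos, coloured by group. Most embryos lie along 1 band, and JxB uniparental embryos 1 and 2 lie far below it, with Dppa4 at 0.531 and 0.284 CPM and Dppa2 at 78.3 and 79.9 CPM.

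Nr5a2 was lower over both crosses. In BxJ uniparental embryos it ran from 32.7 to 151 CPM with a median of 54.9, and 7 of 8 lay below the BxJ 2PN median of 133 (range 40.4 to 373). The JxB uniparental values of 54.7, 39.2, 90.7 and 18 CPM all lay below the JxB 2PN median of 151. The change was -1.38 ± 0.27 (log2, SE; adjusted p = 1.7e-05), called under all 20 alternatives, with values from -1.57 to -1.22. Lower in 11 of 12 uniparental embryos than the 2PN median of their cross, it still overlapped the 2PN range in both crosses.

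Of the Krüppel-like members, Klf17 ran from 193 to 539 CPM in BxJ uniparental embryos, median 256, against 95.8 to 767 in BxJ 2PN, median 464, with 7 of 8 below that median. JxB uniparental embryos held 918, 361, 118 and 233 CPM, from among the highest to below the lowest of JxB 2PN (144 to 1185). Over both crosses Klf17 was lower by -0.56 ± 0.19 (log2, SE; adjusted p = 0.0119). This call was lost with DESeq2's size factors (-0.35, adjusted p = 0.11), in DESeq2 itself and without BxJ 1PN embryo 9 (-0.44, adjusted p = 0.0608), over a range from 0.000221 to 0.196 across 20 alternatives. Without JxB uniparental embryos 1 and 2 it moved to -0.92 (adjusted p = 0.00022).

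Klf5 was lower by -0.95 ± 0.36 (log2, SE; adjusted p = 0.0267). Its levels ran from 6.51 to 95.7 CPM in BxJ uniparental embryos (median 44.3) and from 9.94 to 183 in BxJ 2PN (median 54.0). JxB uniparental embryos 1 and 2 had no count, and embryos 3 and 7 had 20.9 and 32.9 CPM. The groups overlapped, and 12 of 20 alternatives kept the call. Without embryos 1 and 2 the change was -0.72 (adjusted p = 0.103), and without BxJ uniparental embryo 10, the lowest of its group at 6.51 CPM, it was -0.86 (adjusted p = 0.0556).

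Rarg did not pass over both crosses in edgeR, at -0.70 ± 0.33 (log2, SE; adjusted p = 0.0726), but limma voom called it lower (-1.50 ± 0.47, adjusted p = 0.00708). In BxJ uniparental embryos its 5.03 to 28.3 CPM (median 12.8) fell inside the BxJ 2PN range of 3.64 to 35.6 (median 11.9), with 4 of 8 above that median. JxB uniparental embryo 3 had 5.22 CPM, from 8 counts, and the other 3 embryos had none. Over the 4 libraries a floor of 3 counts amounts to 0.305 CPM. JxB 2PN embryos ran from 0.41 to 73.8 CPM with a median of 15.4.

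Nfya and Yap1 were the members that were higher. Nfya ran from 7.14 to 51.8 CPM in BxJ uniparental embryos (median 31.5) and from 4.69 to 56.8 in BxJ 2PN (median 20.1). JxB uniparental embryos 1, 2, 3 and 7 had 675, 304, 62.0 and 122 CPM, and only the first 2 lay above the JxB 2PN range of 33.8 to 234. The rise over both crosses was 0.87 ± 0.27 (log2, SE; adjusted p = 0.00511), and it was 0.17 (adjusted p = 0.667) without those 2 embryos.

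Yap1 lay between 128 and 218 CPM in the 8 BxJ uniparental embryos (median 163), all above the BxJ 2PN median of 94.9 and 3 above its highest embryo at 174. JxB uniparental embryos 1, 2, 3 and 7 had 879, 514, 181 and 224 CPM, all above the JxB 2PN median of 150.2. JxB 2PN ran from 76.7 to 326 CPM except for embryo 8 at 1304.5. Yap1 rose by 0.79 ± 0.20 (log2, SE; adjusted p = 0.000752). Without JxB uniparental embryos 1 and 2 the rise was 0.45 (adjusted p = 0.0942), and without JxB 2PN embryo 8 it was 1.02 (adjusted p = 6.1e-08).

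Within the crosses, BxJ uniparental embryos had 4 members lower (Dppa2, Dppa4, Nr5a2 and Klf17) and Yap1 higher than BxJ 2PN, where 31.6% of 24380 genes were called (13.2% lower, 18.5% higher). Of these calls 58.3% were higher, and 71.9% with DESeq2's size factors. Their log2 fold changes were -1.04 ± 0.31 for Dppa2, -0.86 ± 0.34 for Dppa4, -1.32 ± 0.32 for Nr5a2, -0.84 ± 0.22 for Klf17 and 0.58 ± 0.22 for Yap1 (SE). Klf5 (-0.67 ± 0.39), Nfya (0.24 ± 0.32) and Rarg (-0.28 ± 0.34) were not called. Without BxJ uniparental embryo 10, the lowest in Dppa2, Dppa4, Klf5 and Rarg, 3 calls were left, and those of Dppa4 (-0.66, adjusted p = 0.152) and Yap1 (0.50, adjusted p = 0.124) were lost. The same 2 calls were lost when only embryos of the first listing were used.

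JxB uniparental embryos had 5 members lower and 2 higher, where 34.8% of genes were called (20.1% lower, 14.7% higher, so that 42.2% of calls were higher, and 54.8% with DESeq2's size factors). The changes were -2.08 ± 0.49 for Dppa2, -3.26 ± 0.60 for Dppa4, -1.75 ± 0.48 for Nr5a2, -2.60 ± 0.76 for Klf5, -4.45 ± 0.93 for Rarg, 1.56 ± 0.39 for Nfya and 0.99 ± 0.31 for Yap1 (log2, SE). Klf17 was not called, at -0.23 ± 0.30. The median over all genes was itself -0.64. Without embryos 1 and 2, which leaves 2 embryos in the group, 746 genes were called higher and 856 lower of 26116, in place of 3582 and 4899 of 24380. In that fit 3 members were called, and they were Dppa2 (-2.33, adjusted p = 0.0271), Dppa4 (-2.05, adjusted p = 0.0408) and Klf17 (-1.39, adjusted p = 0.0413). There Nfya and Yap1 turned to -0.09 and -0.13, neither called. The 2 embryos kept there, 3 and 7, held 1532064 and 1002464 counts, fewer than the 3768466 and 3521233 of embryos 1 and 2.

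The uniparental effect itself was tested for a difference between crosses (JxB minus BxJ), and 2 of 8 members were called lower, where 15.9% of genes were called (11.8% lower, 4.09% higher). That was 2875 genes lower and 998 higher, against 1174 and 616 without JxB uniparental embryo 1, 1531 and 537 without embryo 2, and 223 and 340 without both. The called members were Dppa4, at -2.41 ± 0.64 (log2, SE; adjusted p = 0.0045), and Rarg, at -4.17 ± 1.02 (adjusted p = 0.00195). Without JxB uniparental embryos 1 and 2, which leaves embryos 3 and 7 in the group, neither was called (-1.27, adjusted p = 0.441, and -2.36, adjusted p = 0.405). Embryos 1, 2 and 7 all had no count of Rarg, and each of the calls held without embryo 1 or embryo 2 alone. For Dppa2, Nr5a2, Klf5, Klf17, Nfya and Yap1 no difference between the crosses was called in edgeR, with values from -1.93 (Klf5) to 1.32 (Nfya). Klf5 was called in limma voom (-3.75, adjusted p = 0.0137) and Nfya with DESeq2's size factors (adjusted p = 0.0438), and Klf5 was called in 4 of 20 alternatives, Nfya in 5, Klf17 in 1 and Yap1 in 1.

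**Figure D4:**
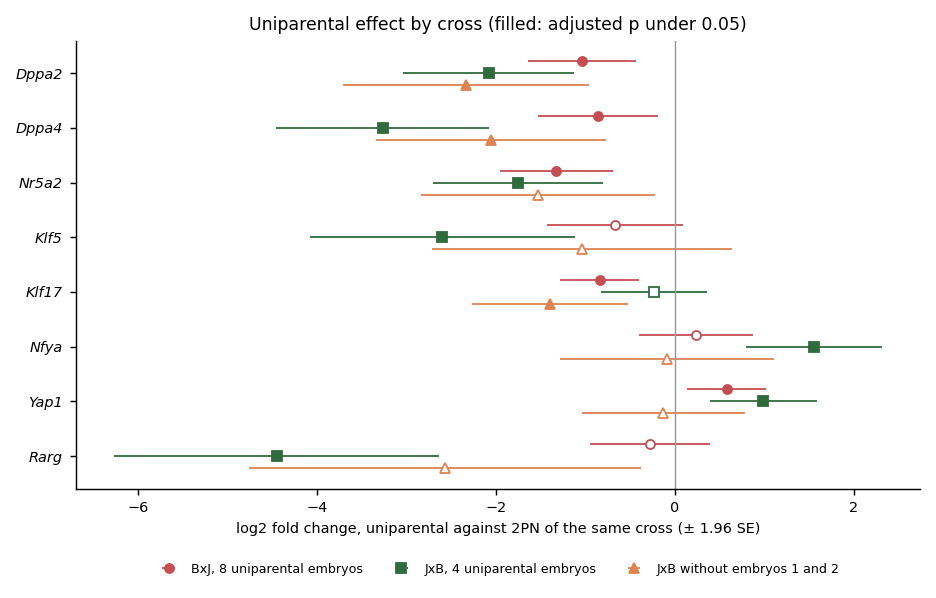
Log2 fold change of uniparental against 2PN embryos of the same cross, with bars for approximate 95% intervals, for BxJ (circles), JxB (squares) and JxB without uniparental embryos 1 and 2 (triangles). Filled points had an adjusted p under 0.05, and Nfya and Yap1 in JxB move to about 0 without the 2 embryos.

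Uniparental embryos were also compared with the embryos that shared their single pronucleus but not the in silico call. Against 1PN embryos over both crosses, 3 members were lower and 2 higher, where 36.1% of 22785 genes were called (15.5% lower, 20.6% higher). Dppa2 was lower by -1.40 ± 0.32, Dppa4 by -1.28 ± 0.39 and Nr5a2 by -1.45 ± 0.31, and these 3 calls held under all 19 alternatives. In JxB, with 4 embryos against 3, every uniparental embryo lay below every 1PN embryo in Dppa2, Dppa4, Nr5a2, Klf5 and Rarg. In Yap1 every uniparental embryo lay above every 1PN embryo. The share of all genes that separate in this way was not counted, so these separations are not read as particular to the members. Klf17 (-0.55 ± 0.23, adjusted p = 0.0513), Klf5 (-0.98 ± 0.43, adjusted p = 0.0621) and Rarg (-0.79 ± 0.39, adjusted p = 0.101) did not pass. Yap1 was higher by 0.93 ± 0.27 and Nfya by 0.94 ± 0.36 (log2, SE). The Nfya call was lost under 6 of the alternatives, among them without JxB uniparental embryo 1 (0.59, adjusted p = 0.188), and both calls were lost without embryos 1 and 2 (adjusted p = 0.567 for Nfya and 0.0765 for Yap1). The fit with limma voom called all 8 members.

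Parthenotes, labelled C57BL/6, were set against BxJ 2PN, the same 2PN embryos that served for the BxJ uniparental comparison. In them 4 members were lower (Klf17, Nfya, Nr5a2 and Rarg) and Yap1 was higher, where 50.9% of genes were called (21.8% lower, 29.1% higher, so that 57.2% of calls were higher, and 67.9% with DESeq2's size factors). The median log2 fold change was -0.38 over the members and 0.18 over all genes.

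Klf17 had the smallest p of the members. In the 31 parthenotes it ran from 84.9 to 371 CPM with a median of 221, and 31 of 31 lay below the BxJ 2PN median of 464, although the ranges overlapped. The change was -1.23 ± 0.13 (log2, SE; adjusted p = 4.4e-14), called under all 20 alternatives. Rarg had a median of 8.42 CPM (range 1.48 to 22.9) against 11.9 in BxJ 2PN, a change of -0.83 ± 0.22 (adjusted p = 0.000697) with 23 of 31 below that median. Yap1 had a median of 148 CPM (range 87.1 to 538) against 94.9, a rise of 0.50 ± 0.14 (adjusted p = 0.00186) with 27 of 31 above it. Both were called under all 20 alternatives. Parthenote libraries were shallower than BxJ 2PN libraries, with medians of 3185905 and 3867740 counts. Across BxJ 2PN embryos Rarg (r = 0.49) and Yap1 (r = 0.44) rose with log2 total counts. The part of depth in the Rarg and Yap1 changes was not tested.

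Nfya, at a median of 13.8 CPM against 20.1, changed by -0.62 ± 0.21 (adjusted p = 0.0104) with 21 of 31 embryos below the 2PN median. Nr5a2, at 114 against 133 CPM, changed by -0.44 ± 0.18 (adjusted p = 0.0321) with 20 of 31 below. Both calls were lost with DESeq2's size factors, where Nfya was -0.42 (adjusted p = 0.0896) and Nr5a2 -0.26 (adjusted p = 0.187), and in limma voom, DESeq2 and the first listing. Dppa2, Dppa4 and Klf5 did not pass, at -0.32 ± 0.17, -0.23 ± 0.20 and 0.33 ± 0.22, although Klf5 was called higher with DESeq2's size factors (0.54, adjusted p = 0.0342). Parthenote embryo 11 was the lowest of its group in Dppa2 (24.9 CPM), Dppa4 (88.8) and Nr5a2 (22.2) and the highest in Yap1 (538).

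A direct comparison of BxJ uniparental embryos with parthenotes called 0 of 8 members, where 4.98% of genes were called in edgeR (3.41% higher, 1.57% lower). That was 831 genes higher and 383 lower, and 294 and 122 without BxJ uniparental embryo 10. At an unadjusted p under 0.05 there were 4 members, and neither limma voom nor DESeq2 called any. The widest differences were -1.0 ± 0.41 for Klf5, -0.89 ± 0.32 for Nr5a2 and 0.86 ± 0.33 for Nfya, and Nr5a2 was called when libraries under 2000000 counts were left out (-0.90, adjusted p = 0.0398, over a range from 0.0398 to 0.711). Dppa2 (-0.72 ± 0.31), Dppa4 (-0.63 ± 0.34), Klf17 (0.39 ± 0.21) and Rarg (0.55 ± 0.35) were not called either. Yap1 was close in both, with medians of 163 and 148 CPM, a difference of 0.07 and an interval from -0.40 to 0.54. Summed cumulus and granulosa markers were high in both of these groups against BxJ 2PN, as given above, and their part in the member levels was not tested.

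The 2PN embryos of the reciprocal crosses differed most in Nfya. In JxB 2PN it ran from 33.8 to 234 CPM with a median of 76.7, against 4.69 to 56.8 and 20.1 in BxJ 2PN, and 21 of 21 JxB embryos lay above the BxJ median, 16 of them above its highest embryo. The difference was 2.02 ± 0.21 (log2, SE; adjusted p = 3.3e-14). Called under all 20 alternatives, it lay between 1.91 and 2.36. Along with Yap1 it made 2 members higher in JxB and 1 lower, where 38% of genes were called (18.8% higher, 19.1% lower).

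Yap1 had a median of 150.2 CPM in JxB 2PN and 94.9 in BxJ 2PN, with 17 of 21 above the BxJ median. The difference was 1.09 ± 0.16 (log2, SE; adjusted p = 7.1e-09), and it was 0.64 (adjusted p = 2.8e-05) without JxB 2PN embryo 8. Dppa2 was the member lower in JxB, at -0.56 ± 0.20 (adjusted p = 0.0215) with 14 of 21 below the BxJ median. Its call was lost without libraries under 2000000 counts (-0.18, adjusted p = 0.533) and in the first listing (-0.39, adjusted p = 0.188). Dppa2 also followed depth across the 21 JxB 2PN embryos (r = 0.75 with log2 total counts, permutation p = 6e-05, adjusted p = 0.00048; rho = 0.75, p = 0.00013; r = 0.64 without the 2 shallowest or deepest libraries), and no such relation was seen in BxJ 2PN (r = 0.03, permutation p = 0.839; rho = 0.07, p = 0.651). Nr5a2, Klf5, Klf17, Dppa4 and Rarg had differences between -0.23 (Dppa4) and 0.25 (Rarg), none called.

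Placed in the order of their medians, the 7 groups overlapped with their neighbours in range for every member. For Nfya the order ran from JxB uniparental (213 CPM) over JxB 2PN (76.7), JxB 1PN (66.2), BxJ uniparental (31.5), BxJ 1PN (22.2) and BxJ 2PN (20.1) to parthenotes (13.8), so that all JxB groups stood above all others. For Klf17 it ran from JxB 1PN (514 CPM) over BxJ 2PN (464), BxJ 1PN (416), JxB 2PN (366), JxB uniparental (297) and BxJ uniparental (256) to parthenotes (221). For Nr5a2 the 2 uniparental groups were last, at 54.9 and 46.9 CPM, with parthenotes next at 114. In these 3 orders the medians of neighbours lay closer together than the larger SD of the pair, except JxB 1PN and BxJ uniparental for Nfya, which were 34.7 CPM apart with a larger SD of 23.4. Among the other members the gap was over that SD between JxB 1PN and BxJ 2PN for Dppa2 (239 CPM), between BxJ and JxB uniparental for Dppa4 (351 CPM) and Klf5 (33.8 CPM), and between parthenotes and JxB uniparental for Rarg (8.42 CPM).

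Across embryos of 1 group some members varied together, tested for all 28 pairs on log2(CPM + 1) with 100000 permutations and adjustment over the pairs. Pairs of other genes were not tested, so the counts of called pairs have no share over all genes beside them. They are not read as particular to the members. In BxJ 2PN 4 pairs were called, all positive. Dppa2 and Dppa4 went together most closely (r = 0.77, permutation p = 1e-05, the smallest that the permutations can give, adjusted p = 0.00028; rho = 0.77, adjusted p = 0.00028), with r = 0.67 without the 2 embryos farthest from the median of Dppa2. The other called pairs joined Nr5a2 with Dppa2 (r = 0.48), Dppa4 (r = 0.46) and Klf5 (r = 0.46), with adjusted permutation p of 0.016, 0.0164 and 0.0164. None of these 3 passed with Spearman's rho (0.34, 0.34 and 0.35, adjusted permutation p = 0.114 each).

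In JxB 2PN 7 positive and 4 negative pairs were called over 21 embryos. Dppa4 went with Nr5a2 (r = 0.87, adjusted permutation p = 0.00056; rho = 0.70, adjusted p = 0.00616; r = 0.71 without 2 embryos), and Klf5 with Rarg (r = 0.82, adjusted permutation p = 0.00056; rho = 0.75, adjusted p = 0.00252; r = 0.75 without 2). Nfya ran against Klf5 (r = -0.68, adjusted permutation p = 0.00609; rho = -0.61, adjusted p = 0.0185) and Dppa4 (r = -0.61, adjusted permutation p = 0.0158; rho = -0.61, adjusted p = 0.0185), and with Yap1 (r = 0.64, adjusted permutation p = 0.00997; rho = 0.46, adjusted p = 0.0816). Without the 2 embryos farthest out in Klf5, the relation of Klf5 with Nfya was -0.45. Depth moved with Dppa4 (r = 0.63) and Nr5a2 (r = 0.58) in this group too, and its part in these pairs was not tested.

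Parthenotes gave 4 positive and 2 negative pairs over 31 embryos. Dppa2 and Dppa4 had r = 0.77 (adjusted permutation p = 0.00532), but rho was 0.23 (adjusted p = 0.468) and r was 0.11 without 2 embryos, so that the relation rested on those. Dppa4 ran against Yap1 (r = -0.55, adjusted permutation p = 0.044; rho = -0.52, adjusted p = 0.0862), with r = -0.56 without 2 embryos. In the same 31 embryos Dppa4 rose with log2 total counts (r = 0.52, adjusted permutation p = 0.0292; rho = 0.38, p = 0.035; r = 0.09 without 2 embryos) and Yap1 fell with them (r = -0.46, adjusted permutation p = 0.0292; rho = -0.26, p = 0.153; r = -0.14 without 2 embryos). The part of depth in these pairs was not tested.

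**Figure D5:**
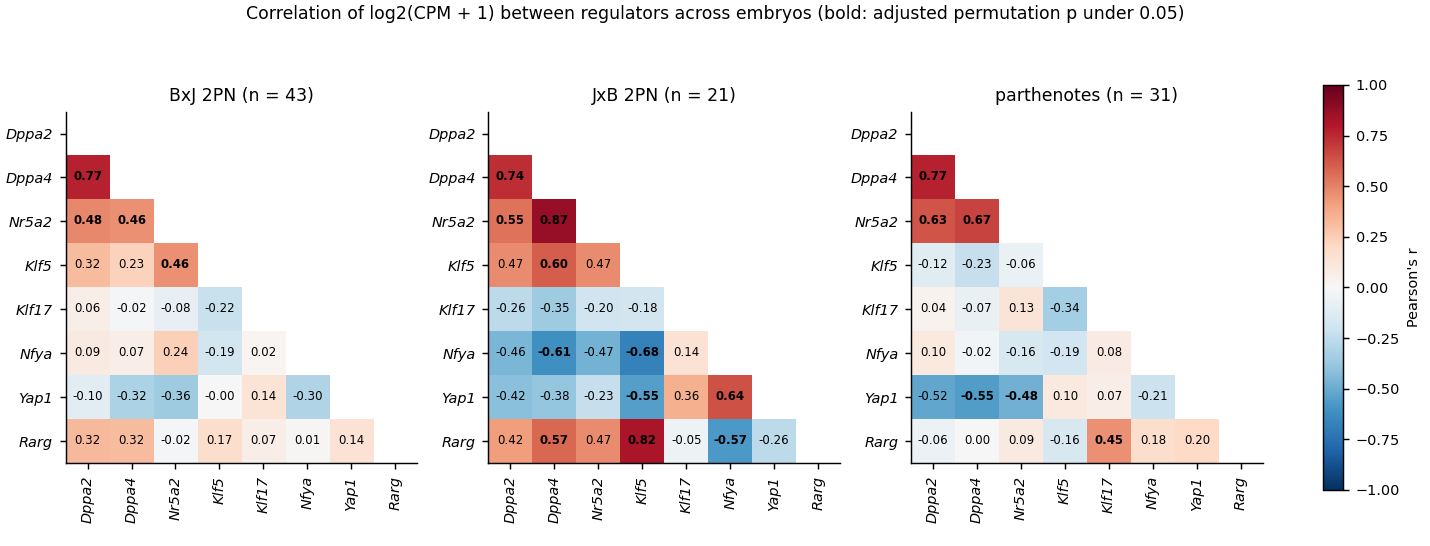
Pearson's r between members across embryos of 3 groups on log2(CPM + 1), from -1 (blue) to 1 (red), with bold numbers where the adjusted permutation p was under 0.05. The block of Dppa2, Dppa4 and Nr5a2 is positive in all 3 groups, and the called negative pairs of Nfya are in JxB 2PN.

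Among 7282 genes averaging 10 CPM or more in BxJ 2PN, the gene most like Dppa2 over the 43 embryos was Dppa4 (rho = 0.77), which the pairs above already show, followed by Ctnnbl1 (0.73) and H2-Q6 (0.70). Those most like Dppa4 were Ctsa (0.80), Lst1 (0.80) and Crxos (0.79). Nr5a2 was followed most closely by Hmmr (0.70) and Cenpe (0.67), Klf5 by Fscn1 (0.74) and Snai1 (0.69), and Klf17 by Abcf2 (0.74), Khdrbs1 (0.72) and Nfyc (0.61). Among the genes most like Nfya were Ptpn11 (0.51) and Zfp449 (0.50), while Yap1 was followed by Ccdc6 (0.77) and Birc3 (0.75) and Rarg by Cul2 (0.70) and Pgap2 (0.66). These ranks describe 43 libraries that differ in depth, and Yap1 (r = 0.44 with log2 total counts, adjusted permutation p = 0.012; rho = 0.42, p = 0.00484) and Rarg (r = 0.49, adjusted permutation p = 0.0036; rho = 0.63, p = 1e-05) rose with depth there.

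Partners of the members were described from lists. NFYB and NFYC are the histone-fold subunits that join NFYA in NF-Y. Their transcripts were lower in uniparental embryos over both crosses and in parthenotes. In uniparental against 2PN embryos over both crosses both were lower, Nfyc by -1.26 ± 0.29 (adjusted p = 0.000229) and Nfyb by -1.03 ± 0.33 (adjusted p = 0.00805), while Nfya was higher. The Nfya call was lost without JxB uniparental embryos 1 and 2, and the partners were not refitted without them. Within BxJ, Nfyc was called in uniparental embryos (-0.91 ± 0.30, adjusted p = 0.0141), and Nfyb (-0.63 ± 0.34, adjusted p = 0.139) and Nfya were not. Median Nfyb was 160.5 CPM in BxJ 2PN, 103 in BxJ uniparental, 159 in JxB 2PN and 13.5 in JxB uniparental embryos. In 1PN against 2PN embryos the values were 0.26 for Nfyb and 0.05 for Nfyc, neither called. Against BxJ 2PN, parthenotes were lower in both (-0.70 ± 0.20 and -1.51 ± 0.18) and in Nfya (-0.62 ± 0.21). The reciprocal 2PN embryos, which differed in Nfya, had differences of 0.04 and -0.06 in Nfyb and Nfyc.

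Around Yap1, 20 Hippo and TEAD genes were tested, of which 6 were higher and 4 lower in uniparental than in 2PN embryos, where 26.6% of all genes were higher and 18.3% lower. Their median was 0.57, against 0.22 over all genes. Tead4, a TEAD partner of YAP1, was lower (-1.91 ± 0.45, adjusted p = 0.000339), with medians of 26.1 CPM in BxJ 2PN, 8.33 in BxJ uniparental, 8.72 in JxB 2PN and 0 in JxB uniparental embryos. Tead2 was higher (1.38 ± 0.33), as was Lats2, a kinase that restrains YAP1 (1.82 ± 0.39, medians of 1.43 and 3.21 CPM in BxJ). Nf2, an upstream component of the Hippo pathway, was lower (-0.84 ± 0.20). None of the 20 was called in 1PN against 2PN embryos.

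The same shares of all genes (26.6% higher, 18.3% lower) and median (0.22) stand beside the next 3 lists. Of 19 retinoid genes tested, 3 were higher and 1 was lower in uniparental embryos, with a median of 0.10. The retinoic acid binding protein gene Crabp2 rose by 1.84 ± 0.31, from medians of 17.7 to 65.5 CPM in BxJ and 3.69 to 12.1 in JxB. Rdh11 (1.28 ± 0.33) and Dhrs3 (1.39 ± 0.42), which code for retinal reductases, were higher too, and Rxra, the receptor that pairs with RARG, was lower (-1.37 ± 0.43). Of 19 other Klf and Sp genes, 6 were higher and 3 lower with a median of 0.27, among them Klf6 (2.00 ± 0.46) and Klf7 (1.11 ± 0.25) higher and Sp1 (-0.97 ± 0.21) and Klf9 (-1.20 ± 0.28) lower. Of 9 nuclear receptors near Nr5a2, 2 were higher and 3 lower with a median of -0.74. Nr1h3 (-2.19 ± 0.43) and Nr2c2 (-1.56 ± 0.31) were lower with Esrra (-0.77 ± 0.26), and Nr6a1 was higher (0.56 ± 0.17). In 1PN against 2PN embryos none of these 3 lists had a called gene.

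Other activators and coactivators of zygotic transcription made up the longest list, which by count also had the most genes lower. Of 26 tested, 14 were lower and 4 higher in uniparental than in 2PN embryos, where 18.3% and 26.6% of all genes were called, and the median was -0.65 against 0.22 over all genes. The chromatin remodeller Smarca5 was at medians of 430 CPM in BxJ 2PN and 264 in BxJ uniparental embryos (-1.13 ± 0.18). Ccnt1, the cyclin of the elongation kinase P-TEFb, was at 384 and 231 CPM (-1.24 ± 0.24), and its relative Ccnt2 was higher, at 49.3 and 95.7 CPM (0.95 ± 0.20). The acetyltransferase gene Ep300 was lower (-0.94 ± 0.19). In parthenotes 17 of the 26 were lower and 4 higher than in BxJ 2PN, where 21.8% and 29.1% of all genes were. In 1PN embryos none was called. Of 23 transcripts of the 2-cell stage, 7 were lower and 1 higher in uniparental embryos, with Pramel7 at -1.02 ± 0.29, Tdpoz2 at -1.28 ± 0.40, Tdpoz4 at -0.98 ± 0.32 and Tmem92 at -0.86 ± 0.28, and 1 was higher in 1PN embryos, Usp17la, a member of a multicopy family (2.44 ± 0.57, adjusted p = 0.042). Its medians were 9.50 CPM in BxJ 2PN and 12.3 in BxJ 1PN, and 44.2 in JxB 2PN and 23.3 in JxB 1PN, so that the JxB medians ran the other way, and the calls over all genes fell to 1 without BxJ 1PN embryo 9. In JxB uniparental embryos 12 of the 23 were lower than in JxB 2PN, where 20.1% of all genes were. In BxJ uniparental embryos only 1 was lower than in BxJ 2PN, where 13.2% of all genes were, and the list median was -0.007. The 4 genes named as lower had the smallest p over both crosses. Medians of Usp17la, Usp17le, Zscan4b and Zscan4e were higher in uniparental than in 2PN embryos of both crosses. For Usp17la they were 41.4 against 9.50 CPM in BxJ and 449 against 44.2 in JxB.

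Genes whose promoters hold the motifs of the members are given beside all genes with a promoter, with no test of the difference. Among 13675 tested genes with a promoter, 28.3% were higher and 18.5% lower in uniparental than in 2PN embryos. The shares were 27.7% and 18% among 5889 genes with the NF-Y motif, 27% and 18% among 905 with the NR5A2 motif and 29.9% and 16.8% among 2048 with the TEAD motif. They were 28.7% and 16.1% among 2228 with the retinoid receptor motif, and 29% and 18.3% among 9116 with the Klf motif. In JxB against BxJ 2PN embryos, where Nfya was higher, 20.2% of 6156 genes with the NF-Y motif were higher and 19.6% lower, against 19% and 20.2% of all 14423. In parthenotes, where Klf17 was lower, 33% of 9540 genes with the Klf motif were higher and 20.9% lower, against 30.6% and 22% of all.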

How the data were processed

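RNA from single 2-cell embryos was made into libraries with SMART-Seq v4 and Nextera XT, per the labels' protocols. HISAT2 2.0.5, featureCounts 2.0.0 and the build GRCm38 are named by the submitters' processing notes. The deposited table holds estimated counts per gene, and 28.4% of its non-zero values were not whole, which were rounded to whole numbers. No column lacked a sample (0), and 4 libraries called dead or of low quality in the labels were left out of the groups. All 121 kept libraries had between 533276 and 4887274 counts. Counts were tested with edgeR 4.0.16 in R 4.3.3 (TMM factors, filterByExpr by group, quasi-likelihood F test, Benjamini-Hochberg adjustment over all genes tested, threshold 0.05). Comparisons over both crosses used the 6 hybrid groups with cross as a term, and all others used contrasts of 7 group means. The edgeR fit of the 6 hybrid groups was tested on simulated counts for 1PN and uniparental against 2PN embryos. The other fits were not simulated. Alternatives were DESeq2's size factors, no filter, limma voom 3.58.1, DESeq2 1.42.0, the listing, depth, a replicate block and left-out embryos. The first listing alone, edgeR's legacy quasi-dispersions and the fits without JxB 2PN embryo 8 or BxJ uniparental embryo 10 were chosen after seeing the data. Correlations used log2(CPM + 1) and 100000 permutations with scipy 1.17.1. All 8 members are named in every comparison, by value or within a range, with the 4 genes of smallest p of each list in uniparental and 1PN against 2PN embryos (where none was called, they are not named) and, for each member, 2 or 3 of its 3 most similar genes. For Nfya 1 of these is not reported here. Members and lists were chosen with earlier results of these data known.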

Additional observations from a re-analysis of the deposited data

Results flagged for a closer look

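In groups of 4 to 10 embryos, an embryo whose distance to its nearest neighbour took up more of the group's range than Dixon's 95% critical value was noted, over 16 groups of values, and chance gives about 1 in 20. Klf17 in BxJ uniparental embryo 14 was such a value, at 539 CPM with the next embryo at 307. Rarg in JxB uniparental embryo 3 was the other, at 5.22 CPM with the other 3 embryos at 0. With 3 embryos tied at 0, any count in the remaining embryo meets this rule, so the flag says nothing of its level. The uniparental effect differed between crosses by the test of the difference itself for Dppa4, at -2.41 (log2, JxB minus BxJ), and for Rarg, at -4.17. Without JxB uniparental embryos 1 and 2, which leaves 2 embryos in the group, neither was called, at -1.27 and -2.36 with adjusted p of 0.441 and 0.405 in edgeR. Embryo 7, which was kept, also had no count of Rarg.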

How the results depend on the processing

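Of 1912 values recomputed under alternatives, 1813 stayed on their side of the threshold, 72 lost a call, 25 gained a call and 2 reversed. Among the 1813, 67 values that were called in neither fit changed sign. For uniparental against 2PN embryos over both crosses, 4 members in place of 7 were called without JxB uniparental embryos 1 and 2. In JxB alone that fit called 3 in place of 7, with Nfya at -0.085 and Yap1 at -0.13, which reversed, and leaving out single embryos gave 4 to 7. In BxJ 3 in place of 5 were called with legacy quasi-dispersions, in the first listing and without BxJ uniparental embryo 10. Against 1PN, limma voom called 8 in place of 5 for uniparental embryos. For parthenotes 3 in place of 5 were called with limma voom, DESeq2 and the first listing. Against parthenotes, 1 member in place of 0 was called for BxJ uniparental embryos without libraries under 2000000 counts. For the difference of the uniparental effect, 5 in place of 2 were called without those libraries, 0 without embryos 1 and 2, and between 2 and 4 when single embryos (JxB uniparental 3 or 7, JxB 2PN 8 among them) were left out. Pairs of members called numbered 4 in BxJ 2PN and 11 in JxB 2PN. For calls that were lost or gained the cause was not tested.

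The labels number hybrid embryos in a series for each cross and pronuclear score, which uniparental and 1PN embryos share, and parthenotes in a series of their own. Whether a shared number pairs embryos is not given. Correlations of same-numbered embryos ran from -0.40 to 0.37 and cannot settle it. With the numbers as a replicate block, 2 members were called over both crosses, 2 in BxJ, 0 in JxB, 3 for parthenotes and 0 for the difference of the uniparental effect. Those fits hold fewer embryos. Uniparental and 1PN embryos share no number, so no block was fitted there. JxB uniparental and JxB 1PN groups of 4 and 3 embryos and the shallower JxB libraries limit what can be seen in that cross.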

Other observations

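The 4 libraries left out of the groups had these values of the members. The embryo labelled dead held 3547812 counts, with Dppa2 at 4.93, Dppa4 at 1.69 and Nr5a2 at 15.2 CPM, no count of Klf5 or Rarg, and Klf17 at 245, Nfya at 43.7 and Yap1 at 305 CPM. Low-quality embryo 6 had 31.1 CPM of Dppa2, 22.5 of Dppa4, 39 of Nr5a2 and 679 of Klf17. Low-quality embryo 8 had 280 CPM of Dppa2, 715 of Dppa4, 54.1 of Nr5a2 and 104 of Klf17. Low-quality embryo 20 held 4803 counts in all, so that its members rested on at most 4 counts each.

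Counts of 2-cell transcripts called in other comparisons follow. In JxB against BxJ 2PN embryos 12 of 23 were higher and 1 was lower, where 18.8% and 19.1% of all genes were, with a median of 0.75 against -0.08 over all genes. Against BxJ 2PN, parthenotes had 9 higher and 5 lower, where 29.1% and 21.8% of all genes were, and their median of 0.19 stood beside 0.18 over all genes. BxJ uniparental embryos had 0 higher and 1 lower, where 18.5% and 13.2% of all genes were. Other Klf and Sp genes had 11 of 20 higher and 2 lower in JxB against BxJ 2PN, where 18.8% and 19.1% of all genes were, with a median of 0.80 against -0.08.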
